A study of Homo sapiens with 12 samples.

Results

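Transcripts of 8 genes of plasminogen activation and the tissue factor pathway, PLAU, PLAUR, PLAT, SERPINE2, F3, TFPI, TFPI2 and ADTRP, were followed in MDA-MB-231 cells, an established human breast cancer line of metastatic origin. The genes were chosen by name with earlier results of these data known, so contrasts between them and all genes only describe. Every probe set that the platform annotation ties to one of these symbols alone was read. This gave 18 of 54675 probe sets and 8 of 19775 genes. Sharp1 cells overexpress Sharp1, a transcriptional repressor encoded by BHLHE41. The shHIF cells were infected with a retroviral construct for hairpins to HIF1a and HIF2a, whose genes are HIF1A and EPAS1. Control cells carried a retroviral hairpin to GFP. Each group had 4 arrays, lettered A to D, of cells grown in DMEM/F12 with serum and left untreated. The sources used here do not give the vector of the Sharp1 cells, the number of transductions or clones, or whether replicates, which the labels call biological, were separate cultures. Each p-value therefore measures only the spread between these arrays as labelled. In bulk RNA, fewer cells with a transcript and less transcript per cell cannot be told apart.

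Urokinase (PLAU) and tissue-type plasminogen activator (PLAT) cut plasminogen into plasmin, a protease that degrades fibrin and pericellular matrix, and the urokinase receptor (PLAUR) concentrates urokinase at the cell surface. Protease nexin-1 (SERPINE2) is a serpin that blocks urokinase, tissue-type activator and thrombin. Tissue factor (F3) is the membrane receptor that starts clotting with factor VIIa, and tissue factor pathway inhibitor (TFPI) shuts that step off. TFPI2 is a related Kunitz inhibitor of plasmin and other proteases that is deposited in matrix, and ADTRP is a membrane protein known to regulate TFPI in endothelial cells. Urokinase, its receptor and tissue factor are long known to be abundant in invasive breast cancer lines.

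RefSeq promoter windows (GRCh38.p14, 250 bases before a transcription start, read in the gene's direction) are shown for 4 of the genes described below. F3 and PLAUR stand for a gene that was lower and one that was higher in Sharp1 cells, and SERPINE2 and ADTRP for genes that moved in opposite directions in Sharp1 and shHIF cells. Capitals mark matches, on either strand, to CACGTG (the E-box form that Sharp1 is known to bind), ACGTG or GCGTG (cores of the hypoxia response element), TGANTCA (AP-1) and GCGGGGGCG (EGR1).
F3, chr1:94541760-94542009, minus strand: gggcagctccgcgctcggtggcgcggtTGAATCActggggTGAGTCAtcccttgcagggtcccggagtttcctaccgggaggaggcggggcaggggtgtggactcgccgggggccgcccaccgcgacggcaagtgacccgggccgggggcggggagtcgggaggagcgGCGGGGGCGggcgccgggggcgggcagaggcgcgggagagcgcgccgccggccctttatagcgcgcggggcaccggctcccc
PLAUR, chr19:43670170-43670419, minus strand: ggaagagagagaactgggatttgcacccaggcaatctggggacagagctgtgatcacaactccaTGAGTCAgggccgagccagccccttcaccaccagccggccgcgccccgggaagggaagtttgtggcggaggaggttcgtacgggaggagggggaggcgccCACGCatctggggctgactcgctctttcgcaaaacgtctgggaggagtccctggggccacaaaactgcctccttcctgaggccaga
SERPINE2, chr2:224031479-224031728, minus strand: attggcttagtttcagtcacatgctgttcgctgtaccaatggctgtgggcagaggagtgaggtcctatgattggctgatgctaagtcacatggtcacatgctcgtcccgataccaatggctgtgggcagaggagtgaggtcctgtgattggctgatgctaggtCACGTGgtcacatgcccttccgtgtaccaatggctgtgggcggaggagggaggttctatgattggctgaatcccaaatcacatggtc
ADTRP, chr6:11778804-11779053, minus strand: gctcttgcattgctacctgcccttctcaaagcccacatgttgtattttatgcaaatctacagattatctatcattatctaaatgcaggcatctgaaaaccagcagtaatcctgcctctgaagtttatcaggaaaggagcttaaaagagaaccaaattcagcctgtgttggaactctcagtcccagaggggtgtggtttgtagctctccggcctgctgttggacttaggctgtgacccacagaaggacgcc

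The F3 window held 2 AP-1 matches, TGAATCA and TGAGTCA, which began 223 and 210 bases before the start, and an EGR1 match that began 82 bases before it. PLAUR had TGAGTCA at 186 bases and CACGC, the reverse complement of GCGTG, at 86 bases before its start. The SERPINE2 window had CACGTG at 87 bases before the start, and the 2 ACGTG matches lie inside that same palindrome. A second SERPINE2 window had a GCGTG match and no CACGTG. The TFPI2 window, like that of F3, had an EGR1 match (118 bases before the start) and an AP-1 match (87 bases), and 1 of the PLAU windows had a GCGTG match. None of the 5 motifs was found in the ADTRP window or in the TFPI window. Over all 35116 windows of this length, CACGTG was present in 6.34%, ACGTG in 18.5%, GCGTG in 32.2%, TGANTCA in 6.57% and GCGGGGGCG in 4.72%. These matches describe the letters and are not evidence of binding. Windows were taken for 7 of the 8 genes. None is given for PLAT, because member windows on chromosome 8 were left out, whereas the shares over all windows include that chromosome.

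Signal is given as the deposited log2 value, and a gene is represented by its brightest probe set unless another is named. A gene was called where limma's adjusted p over all genes was under 0.05. On probe sets of BHLHE41, Sharp1 cells differed from control by 5.35 and 1.59, but by -2.06 on the brightest and -0.12 on the dimmest. In shHIF cells EPAS1 and HIF1A were at 0.138 and 0.602 of the control signal on their brightest probe sets, and in Sharp1 cells EPAS1 was at 0.611. VIM, CD44, AXL and MSN read brightly, as is known for this line, and PGR and CDH1 read below the median probe set (5.41), but 2 of 4 markers known to be low in MDA-MB-231 read above it. EPCAM averaged 8.92 in Sharp1, 9.20 in shHIF and 9.54 in control cells, and ESR1 averaged 6.29, 6.46 and 6.275 in the same order. Spike-in transcripts read 10.39 on shHIF A and 10.45 on shHIF D, against 10.63 to 10.81 elsewhere. Calls of the 8 genes that changed without those 2 arrays are given both ways. So are the counts in gene lists below that changed by over 1.5 times. List genes are named by their calls with all arrays, which some lost without those 2. The 3′ minus 5′ signal of actin, a sign of RNA quality, was 0.56 to 0.85 in Sharp1 arrays, 0.94, 0.90, 0.91 and 0.62 on shHIF arrays A to D, and 0.59 to 0.74 in control arrays. Its part in the shHIF differences was not tested. Of 8 endothelial and platelet markers, 4 read below the median probe set, with CDH5 averaging 3.15 to 3.26 in the groups. PECAM1, TIE1, ITGA2B and GP9 read above it, at 6.73, 6.04, 5.59 and 6.77 over all arrays. PECAM1 was called lower in Sharp1 cells (-0.42) and TIE1 higher in shHIF cells (0.39). The summed linear signal of all 8 markers was 360 to 390 in Sharp1, 430 to 466 in shHIF and 396 to 439 in control arrays, and its part in the results was not tested.

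In Sharp1 cells, transcripts of tissue-type activator, the urokinase receptor and protease nexin-1 were 1.72 to 1.90-fold those of control cells, TFPI2 was 1.36-fold, and urokinase itself was almost level at 1.09-fold. Tissue factor, TFPI and ADTRP were lower. Of the 8 genes, 5 were called higher, where 15.3% of all genes tested were, and 3 were called lower, where 11.8% of all genes were. The median difference of the 8 was 0.28 on the log2 scale and the median size 0.74, beside 0.00 and 0.10 over all genes. Apart from ADTRP (63.3), the 8 genes stood at percentiles of 90.2 to 97.6 in signal among probe sets. Comparisons with all genes were not matched for signal.

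In shHIF cells the pattern was another one. Urokinase, protease nexin-1 and tissue factor fell, ADTRP and TFPI2 rose, and the urokinase receptor and tissue-type activator were not called. Of the 8 genes, 2 were called higher, against 17.6% of all genes, and 3 lower, against 13.2%. Their median difference was -0.05 and their median size 0.35, beside 0.05 and 0.12 over all genes. Both comparisons use the same 4 control arrays.

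**Figure D1:**
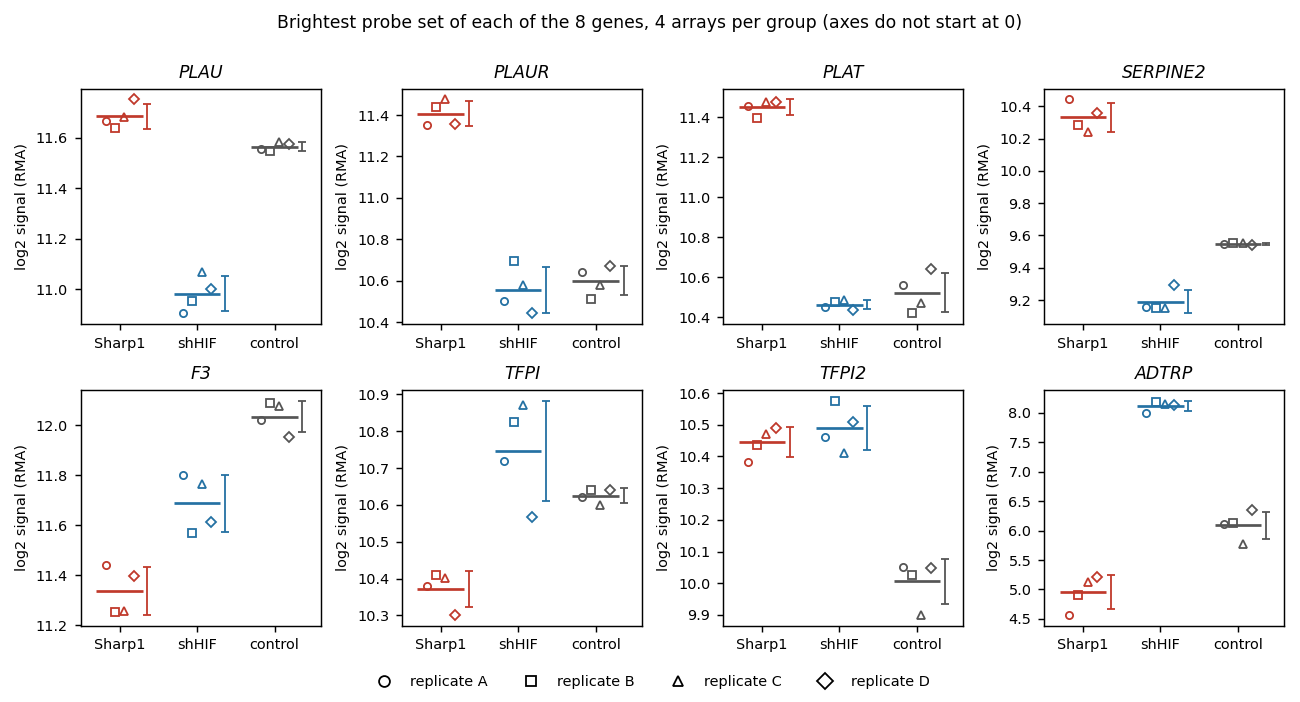
Log2 signal of the brightest probe set of each gene on the 12 arrays, with 1 panel per gene, 1 symbol per replicate letter, the group mean as a horizontal line and the SD (n = 4) as a bar beside it. Axes differ between panels and do not start at 0. ADTRP shows the widest separation, with Sharp1 arrays at 4.57 to 5.22, shHIF arrays at 7.99 to 8.19 and control arrays at 5.77 to 6.34.

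Urokinase mRNA (PLAU) read 11.67, 11.64, 11.68 and 11.75 on Sharp1 arrays A to D, 10.90, 10.95, 11.07 and 11.001 on shHIF arrays, and 11.55, 11.55, 11.58 and 11.58 on control arrays. The shHIF arrays lay below every other array, and the Sharp1 arrays lay just above the control arrays without overlap. The difference in shHIF cells was -0.58 (SE 0.04, adjusted p = 1.60e-11), or 0.667 of the control signal. The difference in Sharp1 cells was 0.12 (SE 0.04, adjusted p = 0.0196), a call that was lost without Sharp1 D (adjusted p = 0.0961), control A (0.0536) or control B (0.0533), and the second PLAU probe set was not called there, at 0.03. That second probe set fell by 0.70 in shHIF cells.

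Tissue-type activator (PLAT), read by 1 probe set, stood at 11.46, 11.40, 11.48 and 11.48 in Sharp1 cells, at 10.45, 10.48, 10.49 and 10.44 in shHIF cells and at 10.56, 10.42, 10.47 and 10.64 in control cells. All Sharp1 arrays lay above the rest, whereas shHIF and control arrays overlapped. Sharp1 cells carried 1.90-fold the control signal (log2 0.93, SE 0.04, adjusted p = 1.07e-14). The difference between shHIF and control cells was -0.06, with a 95% interval of -0.15 to 0.03 (adjusted p = 0.335).

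The urokinase receptor (PLAUR) read 11.35, 11.44, 11.48 and 11.36 in Sharp1 cells, 10.50, 10.70, 10.58 and 10.44 in shHIF cells, and 10.64, 10.51, 10.58 and 10.67 in control cells. Again the Sharp1 arrays stood apart and the other groups overlapped. PLAUR stood 1.75-fold above control in Sharp1 cells (log2 0.81, SE 0.05, adjusted p = 2.02e-12), and all 3 of its probe sets were called higher there, at 0.81, 0.93 and 0.465. In shHIF cells the brightest differed by -0.05 (95% interval -0.15 to 0.06, adjusted p = 0.536) and the next by 0.04, but the dimmest, 214866_at, was called higher by 0.26 (SE 0.06, adjusted p = 0.00243 over all probe sets).

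Protease nexin-1 (SERPINE2) read 10.44, 10.29, 10.24 and 10.36 in Sharp1 cells, 9.16, 9.15, 9.15 and 9.30 in shHIF cells, and 9.54, 9.56, 9.55 and 9.54 in control cells. No groups overlapped, so the serpin was highest in Sharp1 cells and lowest in shHIF cells. Sharp1 cells carried 1.72-fold the control signal (log2 0.78 ± 0.05 SE, adjusted p = 2.65e-12). The shHIF difference was -0.36 (± 0.05 SE, adjusted p = 2.64e-06). With the mean of both probe sets these differences were 0.41 and -0.20, both still called. A second probe set, 227487_s_at, read 3.25 to 3.58 on all 12 arrays, near the bottom of the array's range, and was not called in either comparison. The mean of both therefore carries the change of the brightest and is no separate support for it.

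Tissue factor (F3), also read by 1 probe set, was lower in both Sharp1 and shHIF cells than in control cells. It read 11.44, 11.25, 11.26 and 11.40 in Sharp1 cells, 11.80, 11.57, 11.77 and 11.61 in shHIF cells and 12.02, 12.09, 12.08 and 11.95 in control cells. The groups did not overlap and ran in the order Sharp1, shHIF, control from low to high. Sharp1 cells held 0.617 of the control signal (log2 -0.70 ± 0.05 SE, adjusted p = 4.91e-11). For shHIF cells the share was 0.786 (log2 -0.35 ± 0.05 SE, adjusted p = 6.94e-06).

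ADTRP had the largest changes among the 8 genes. Its brightest probe set, 229070_at, read 4.57, 4.90, 5.13 and 5.22 in Sharp1 cells, 7.99, 8.19, 8.15 and 8.13 in shHIF cells and 6.11, 6.13, 5.77 and 6.34 in control cells. The 3 groups were wholly separate, with Sharp1 arrays below the median probe set, so the size of the fall there rests on dim readings. ADTRP rose 4.08-fold in shHIF cells (log2 2.03, SE 0.12, adjusted p = 2.87e-12), and only 0.0202% of genes changed by more in that comparison. Sharp1 cells read 2.197-fold lower than control (log2 -1.135, SE 0.12, adjusted p = 4.42e-08). The dimmer probe set, 215100_at, was called in the same directions, with differences of -0.30 in Sharp1 cells and 0.87 in shHIF cells. The mean of both gave -0.72 in Sharp1 cells.

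TFPI2 was higher in both Sharp1 and shHIF cells than in control cells. It read 10.38, 10.44, 10.47 and 10.49 in Sharp1 cells, 10.46, 10.58, 10.41 and 10.51 in shHIF cells, and 10.05, 10.03, 9.90 and 10.05 in control cells. Sharp1 and shHIF arrays overlapped, and both groups lay wholly above control. Sharp1 cells carried 1.36-fold the control signal (log2 0.44 ± 0.05 SE, limma adjusted p = 3.21e-08). For shHIF cells the ratio was 1.40 (log2 0.48 ± 0.05 SE, adjusted p = 8.94e-09). The second probe set, 209277_at, rose by 0.45 in Sharp1 cells and differed by 0.14 in shHIF cells (adjusted p = 0.202 over all probe sets). The mean of both gave 0.31 in shHIF cells, still called.

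For TFPI the probe sets differed. The brightest, 213258_at, read 10.38, 10.41, 10.40 and 10.30 in Sharp1 cells, 10.72, 10.83, 10.87 and 10.57 in shHIF cells and 10.62, 10.64, 10.60 and 10.64 in control cells. Sharp1 arrays lay below the rest, and shHIF D lay below every control array while the other 3 shHIF arrays lay above them. On this probe set the Sharp1 difference was -0.25 (SE 0.05, adjusted p = 0.000362), a call for lower TFPI, and the shHIF difference was 0.12 (95% interval 0.02 to 0.23, adjusted p = 0.0759). Without shHIF D that difference was 0.18 (adjusted p = 0.00195), and without shHIF A and D it was 0.22 (adjusted p = 0.000407).

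The other 4 TFPI probe sets were all called higher in shHIF cells over all probe sets. On the second brightest, 210664_s_at, the arrays read 9.88, 9.93, 9.90 and 9.94 in Sharp1 cells, 10.97, 10.98, 10.95 and 10.81 in shHIF cells and 10.44, 10.34, 10.32 and 10.43 in control cells. These groups were wholly separate, with Sharp1 cells at -0.47 (± 0.05 SE, adjusted p = 3.04e-08) and shHIF cells at 0.545 (± 0.05 SE, adjusted p = 3.75e-09) relative to control. The 3 dimmer probe sets, 210665_at, 209676_at and 214378_at, rose by 0.76, 0.45 and 0.78 in shHIF cells and were not called in Sharp1 cells, where they differed by -0.04, -0.22 and 0.09. With the mean of all its probe sets, TFPI rose by 0.53 in shHIF cells (adjusted p = 9.64e-06) and differed by -0.18 in Sharp1 cells (adjusted p = 0.0580), where the call was lost.

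**Figure D2:**
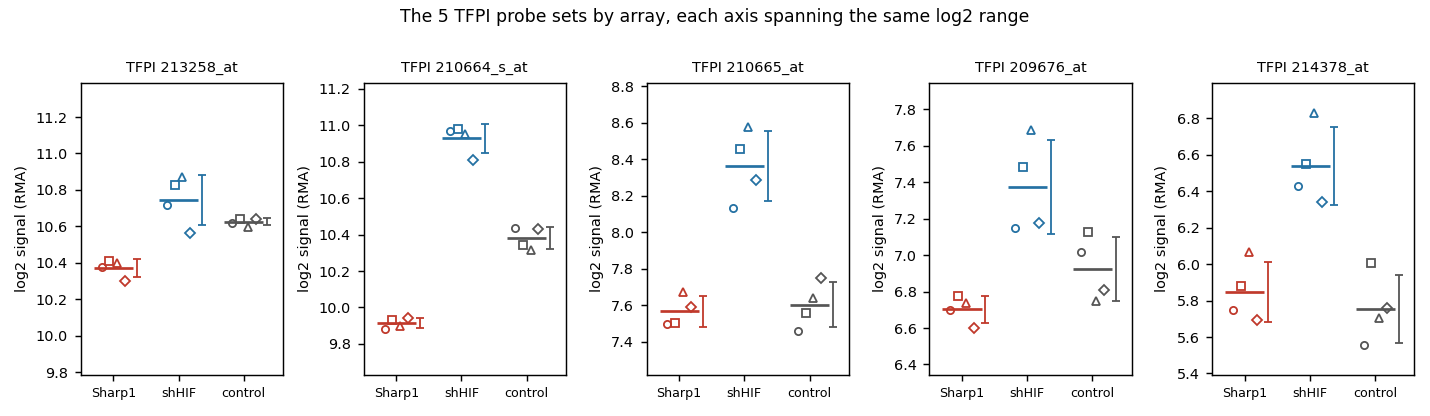
Log2 signal of the 5 TFPI probe sets on the 12 arrays, ordered from the brightest at left, with group means as lines and SD (n = 4) as bars. Each axis spans the same log2 range, so differences between groups can be compared across panels. The shHIF arrays lie wholly above the control arrays on the 4 dimmer probe sets and overlap them on the brightest, and Sharp1 and control arrays overlap on the 3 dimmest.

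Whether probe sets of a gene changed by different amounts was tested on the difference between each probe set and the gene's brightest within each array, with an exact two-sided permutation test over 4 against 4 arrays. Of 30 such tests over 10 probe sets of 6 genes, 20 reached the smallest p this design allows (0.0286, adjusted p = 0.0429 over the 30). They include every test of 227487_s_at of SERPINE2, which read only 3.25 to 3.58 on all arrays. Its tests largely repeat the change of the brightest probe set and cannot show that transcript regions differ. In shHIF against control, 210664_s_at, 210665_at and 214378_at of TFPI exceeded the brightest by 0.42, 0.64 and 0.66 (permutation p = 0.0286 each), and 209676_at by 0.33 (permutation p = 0.0571). For ADTRP the dimmer probe set moved less than the brightest, by 0.84 in Sharp1 cells and 1.16 in shHIF cells (permutation p = 0.0286 each). That dimmer probe set averaged 4.59 in Sharp1 and 4.89 in control cells, below the median probe set, and 5.76 in shHIF cells. Whether dim signal made its changes smaller was not tested. The 2 PLAU probe sets showed no difference past the threshold, with an excess of -0.11 in shHIF cells (permutation p = 0.114). Over all probe sets of the 8 genes, 13 of 18 were called in Sharp1 cells, against 18.1% of all probe sets, and 12 of 18 in shHIF cells, against 22.2%.

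**Figure D3:**
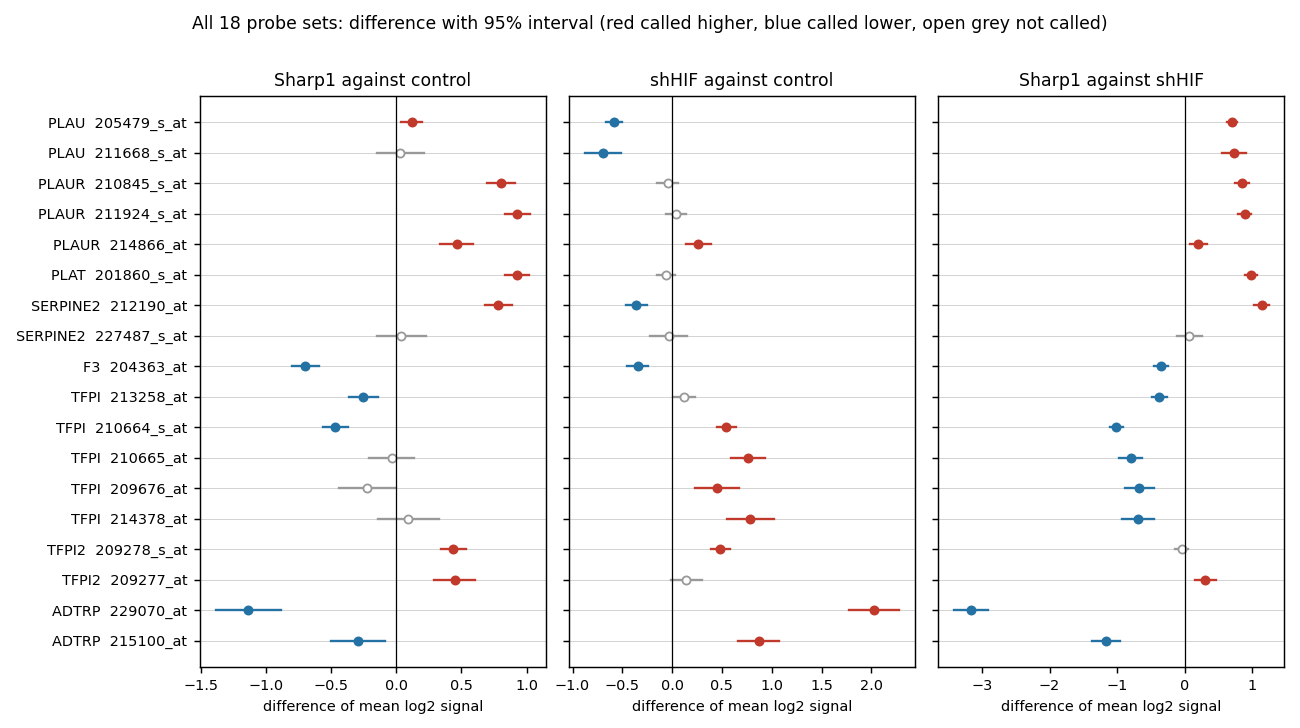
Difference of mean log2 signal with its 95% interval for all 18 probe sets, with 1 panel for Sharp1 against control, 1 for shHIF against control and 1 for the direct comparison. Filled red points were called higher, filled blue points lower and open grey points not called. The ADTRP point at -3.16 in the right panel is the largest, and the axes of the 3 panels differ.

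In the direct comparison of Sharp1 with shHIF cells the differences use no control arrays. Their SEs, intervals and p-values do, as the spread was estimated over all 12 arrays. ADTRP differed most, with Sharp1 cells 8.96-fold lower than shHIF cells (log2 -3.16, SE 0.12, adjusted p = 1.41e-16) on the brightest probe set, where the Sharp1 readings are dim. Its other probe set gave -1.16 and the mean of both -2.16, both called. Protease nexin-1 was 2.21-fold higher in Sharp1 cells (log2 1.14, SE 0.05), tissue-type activator 1.98-fold (0.99, SE 0.04), the urokinase receptor 1.81-fold (0.85, SE 0.05) and urokinase 1.63-fold (0.70, SE 0.04), each with an adjusted p of at most 4.54e-13. For SERPINE2 the mean of both probe sets gave 0.61, still called. Tissue factor and TFPI were lower in Sharp1 than in shHIF cells by 0.35 and 0.37 (SE 0.05 each, adjusted p = 3.51e-06 and 1.32e-06). The other 4 TFPI probe sets differed by -1.01, -0.80, -0.67 and -0.69, and the mean of all 5 by -0.71, all called. All 4 genes of plasminogen activation were thus called higher in Sharp1 than in shHIF cells, where 18.0% of all genes were, and 3 of the 4 tissue factor pathway genes were called lower, where 20.4% were. TFPI2 was not called, at -0.04 (95% interval -0.14 to 0.05, adjusted p = 0.481), although 209277_at was called higher by 0.31 and the mean of both probe sets by 0.13 (adjusted p = 0.0390). Of the 18 probe sets, 16 were called, against 29.1% of all probe sets, and the median size of the 8 genes' differences was 0.78, beside 0.15 over all genes.

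Other genes of the plasminogen system, were taken from a list of 23, of which 19 were tested. In Sharp1 cells 5 were called higher and 0 lower, or 5 and 1 without shHIF A and D, where 15.3% of all genes were higher and 11.8% lower. MRC2, an endocytic receptor that binds the complex of urokinase and its receptor, rose by 1.498 (SE 0.06, adjusted p = 9.24e-16). THBS1, a matrix protein, rose by 0.66 (SE 0.07) and PLGRKT, a plasminogen receptor, by 0.25. In shHIF cells 4 were called higher and 3 lower, near the 17.6% and 13.2% of all genes. LRPAP1, the chaperone of the receptors that clear urokinase with its inhibitors, rose by 0.475, SERPINA5 by 0.29 (adjusted p = 0.0499, from a dim signal) and MRC2 by 0.22. PLGRKT fell by 0.47 there, S100A10, a plasminogen-binding partner of annexin A2, by 0.16 and ENO1 by 0.12. Plasminogen itself (PLG) was not called, at a mean of 5.18 in Sharp1, 5.34 in shHIF and 5.35 in control cells, all below the median probe set.

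Of 30 coagulation and protein C genes, 3 rose and 4 fell in Sharp1 cells, which is close to the 15.3% and 11.8% of all genes. PROS1, the cofactor of activated protein C and of TFPI, rose by 0.92 (SE 0.07, adjusted p = 1.23e-10), ANO6, a scramblase that exposes phosphatidylserine, by 0.56 and PROCR, the endothelial protein C receptor, by 0.18. F12, the gene of factor XII, fell by 0.77 (SE 0.065), F13A1 by 0.43 and GGCX, the carboxylase of vitamin K-dependent factors, by 0.37. In shHIF cells 10 rose and 2 fell, where 17.6% and 13.2% of all genes did. Without shHIF A and D 7 rose and 0 fell. Of the rises with all arrays, PROC, SERPIND1 and FGA read below the median probe set, at means of 4.64, 4.99 and 4.90. ANO6 rose by 0.65 in shHIF cells (SE 0.05), F12 by 0.55 and PROC by 0.46 from a dim signal. F9 and MCFD2 fell by 0.23 and 0.17, calls lost without shHIF A and D. Factor VII (F7), the partner of tissue factor, was not called, at means of 5.91 in Sharp1, 5.87 in shHIF and 5.90 in control cells.

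Thrombin and related proteases signal to cells through protease-activated receptors. Of 4 listed, 3 were tested (F2R, F2RL2 and F2RL3) and 1 was not analysed. F2RL2 (the third receptor of the family) rose by 2.05 in Sharp1 cells (SE 0.09, adjusted p = 1.38e-15), with means of 7.996 in Sharp1, 6.02 in shHIF and 5.945 in control cells. F2R, the main thrombin receptor, fell by 0.34 in Sharp1 cells. Neither was called in shHIF cells, where they differed by 0.08 and -0.12, and F2RL3 was called in neither comparison (-0.035 and 0.008). Of 11 partners of the urokinase receptor, 1 rose and 2 fell in Sharp1 cells, near the 15.3% and 11.8% of all genes. ITGA5 differed by 0.35, IGF2R by -0.56 and EGFR by -0.29. For EGFR, Sharp1 B read 10.20, whereas the other Sharp1 arrays, at 10.78 to 10.88, overlapped the control arrays. In shHIF cells 0 rose and 5 fell (17.6% and 13.2% of all genes), led by the integrin ITGAV (-0.545), CAV1 (-0.28) and ITGA3 (-0.24). Without shHIF A and D these counts were 4 higher and 2 lower in Sharp1 cells, and 0 and 2 in shHIF cells. The falls named for shHIF cells therefore did not all keep their calls.

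**Figure D4:**
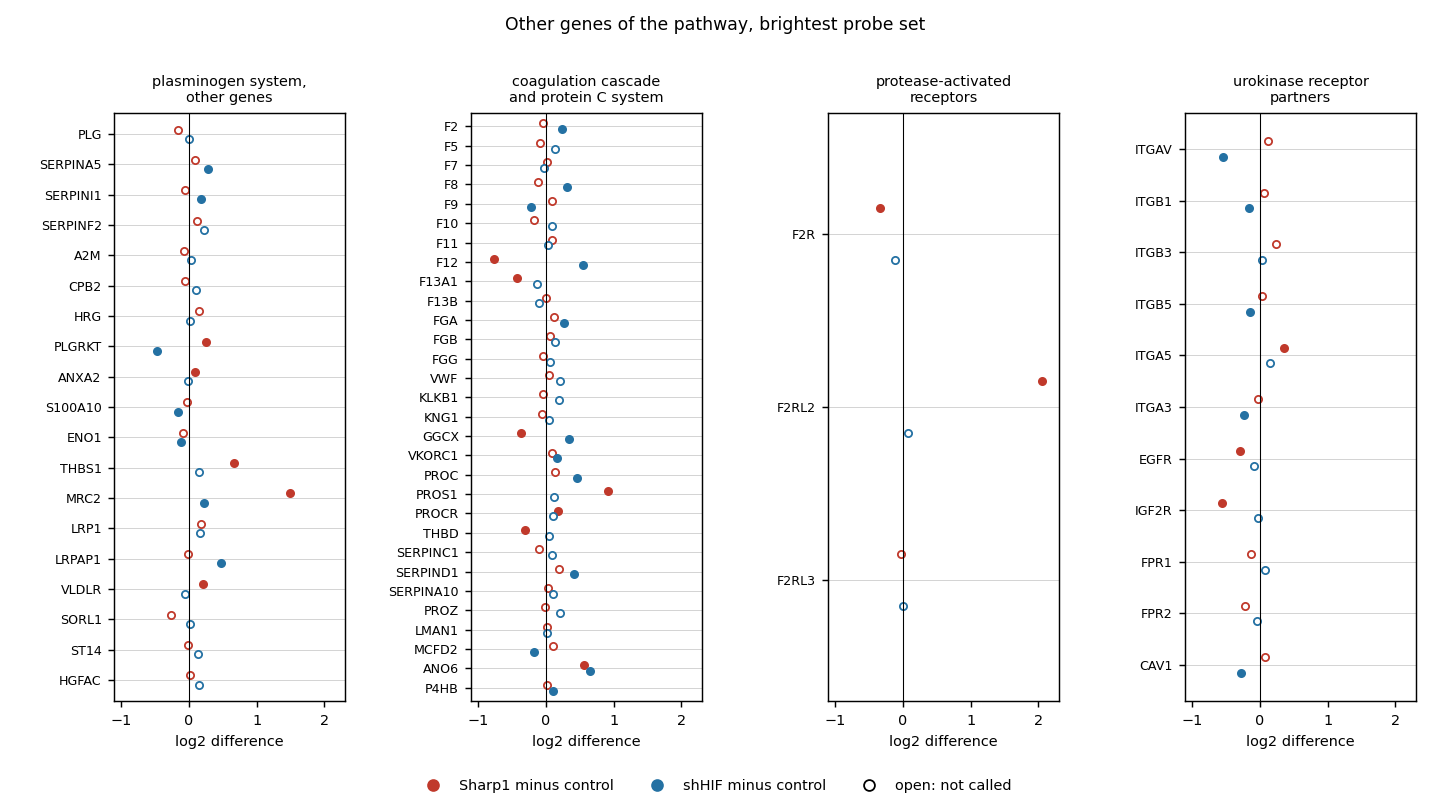
Log2 difference from control of other pathway genes, on their brightest probe sets, in Sharp1 cells (red) and shHIF cells (blue), in 4 panels by list. Filled points were called and open points were not. F2RL2 at 2.05 and MRC2 at 1.498 are the farthest from 0, both in Sharp1 cells.

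Genes whose 12 values most resembled those of a member were ranked by the root mean square difference of values centred on each gene's mean. For ADTRP, whose own values had a root mean square of 1.32, the nearest were TMEM132D-AS1 (0.233), the collagenase MMP1 (0.242) and HLA-DPA1 (0.293). TMEM132D-AS1 and HLA-DPA1 averaged 4.74 and 4.998, below the median probe set, and MMP1 averaged 6.87. PLAU, at 0.311, was nearest to ACER3, MAGT1 and SLC7A6 (0.0476 to 0.0556), and PLAUR, at 0.398, to DAB2, GARRE1 and IGDCC4 (0.0612 to 0.0822). PLAT was nearest to IL11 (0.0595), TUBB2A and GARRE1, SERPINE2 to PDE1C (0.0907), C12orf75 and MYO5A, and F3 to FUT8 (0.0690), PDS5A and RNF227. The ranking describes these 12 arrays and was not tested.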

How the data were processed

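RNA of 12 samples of MDA-MB-231 cells was hybridised to Affymetrix arrays with 54675 probe sets. The deposited log2 values were made by the authors with RMA, per the submitters' processing notes, which corrects background, normalizes between arrays and summarises each probe set. Its version is not stated there. Array values have no read depth, and precision is limited by the number of arrays. Probe sets were named by GEO's platform annotation: 41091 had 1 symbol, 1801 several and 11721 none, beside 62 controls. For each of 19775 genes the brightest probe set over all arrays was used. A mean per group was fitted to all 12 arrays with limma 3.58.1 in R 4.3.3, with eBayes and trend, with Benjamini-Hochberg adjustment over all genes, or over 54613 probe sets where a single probe set is named. The fit was also run on simulated data with independent normal values and few changed genes, which lack effects shared across an array. Members, lists and the naming rule (all members; per list up to 3 called rises and falls, with fixed exceptions; 3 nearest genes per member changed by at least 0.5) were chosen with earlier results of these data known. Alternatives covered probe set choice, normalization, filter, variance model, array weights, replicate block and left-out arrays.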

Additional observations from a re-analysis of the deposited data

Results flagged for a closer look

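In 6 of 54 groups of 4 arrays, 1 array stood far from the other 3 by Dixon's criterion, which chance meets in about 1 of 20 groups. On the second PLAU probe set Sharp1 B read 9.67, with the others between 10.11 and 10.20, and on the brightest SERPINE2 probe set shHIF D read 9.295, with the others at 9.15 to 9.16. Sharp1 D read 3.25 on the dim SERPINE2 probe set, where the others reached 3.54 to 3.58. On 210664_s_at of TFPI shHIF D read 10.81, below 10.95 to 10.98, and on 215100_at of ADTRP it read 5.91, above 5.70 to 5.71. Control C read 9.90 on the brightest TFPI2 probe set, below 10.03 to 10.05. Of the 6 readings, 3 were on shHIF D, which had low spike-in signal (10.45) and an actin 3′ minus 5′ signal of 0.62, below 0.90 to 0.94 on the other shHIF arrays. A link was not tested.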

How the results depend on the processing

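Of 24 differences (8 genes in 3 comparisons), 20 kept their side of the threshold in all 23 alternatives, and the called ones among them kept their direction. PLAUR in shHIF against control, not called in any, lay between -0.09 and 0.085. The exceptions were PLAU and TFPI in Sharp1 against control, TFPI in shHIF against control, and TFPI2 in Sharp1 against shHIF, which turned from -0.04 to 0.13 when both probe sets were averaged. PLAU in Sharp1 cells lost its call in 5 alternatives, also as a mean of probe sets (0.08, adjusted p = 0.440) and without the variance trend (adjusted p = 0.0924), in a range of 0.00345 to 0.440. TFPI in shHIF cells passed in 4, also with array weights (adjusted p = 0.0289), in a range of 9.64e-06 to 0.248. With 1 array left out, 7 to 8 of the 8 genes were called in Sharp1 against control, 5 to 6 in shHIF against control and 7 in Sharp1 against shHIF. The replicate block gave 8, 5 and 7 genes, as without it, and changed no call among the 24. Same-letter arrays did not deviate together (correlations of -0.18 to 0.14 over the comparisons), so the letters were not taken as pairs. Dim signal limits the sizes for ADTRP in Sharp1 cells and for 227487_s_at of SERPINE2.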

Other observations

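Of 9 transcription factors known to act at the PLAU and F3 promoters, 3 rose and 3 fell in Sharp1 cells, where 15.3% and 11.8% of all genes did, with EGR1 up by 1.18 (SE 0.06), FOS by 0.32 and RELA by 0.26, and FOSL1 down by 0.66 (SE 0.05), ETS1 by 0.34 and ETS2 by 0.21. In shHIF cells 5 rose and 2 fell, or 3 and 1 without shHIF A and D, where 17.6% and 13.2% of all genes did with all arrays, with EGR1 up by 0.81, FOS by 0.37 and ETS2 by 0.29, and SP1 and JUN down by 0.24 and 0.10. SP1 and JUN therefore did not both keep their calls without shHIF A and D. Against these values, F3 was lower in both lines, and PLAU was lower in shHIF cells and called slightly higher in Sharp1 cells. A link was not tested.

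Of 6 tested relatives of the members, AIG1, a homologue of ADTRP, rose by 0.93 in Sharp1 cells (SE 0.07) and was not called in shHIF cells (0.03). SERPINB8, a serpin, rose by 0.30 in Sharp1 cells. SPINT2, a Kunitz-type inhibitor like TFPI, and LY6K, of the urokinase receptor's protein family, fell there by 0.95 and 1.99 (SE 0.06 and 0.08). LY6K also fell in shHIF cells, by 0.30, a call lost without shHIF A and D.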
